A study of Mus musculus with 84 samples.

Results

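The genes that place, copy and remove the methyl mark of cytosine in DNA were followed through mouse fibroblast reprogramming. The set held 9 of the 18909 genes in the deposited table, chosen by symbol. It comprised the DNA methyltransferase genes Dnmt1, Dnmt3a and Dnmt3b, their cofactor genes Dnmt3l and Uhrf1, the dioxygenase genes Tet1, Tet2 and Tet3, and the glycosylase gene Tdg. Expression had been measured by STRT RNA-seq, in which transcripts are tagged and read at their 5′ ends. The 10 groups had 3 biological replicates each. MEFs were wild-type 129 embryonic fibroblasts grown with FGF2 and heparin. ESCs were TNG MKOS cells, grown with LIF, which have GFP in one Nanog allele and a cassette, silent without doxycycline, that encodes the MKOS factors (Oct4, Sox2, Klf4 and c-Myc) and mOrange. The reprogramming cells were MEFs from chimeric embryos made with that line, of both sexes, mixed with an excess of wild-type MEFs and infected with a pMXs retrovirus. The virus carried either BFP, a fluorescent protein used as the control (Cont), or the constitutively active Smad3CA (+Sm3CA). Both series received ESC medium with 300 ng/ml doxycycline and vitamin C and were sorted for mOrange on days 3, 6, 8 and 10. All 8 reprogramming groups thus shared the MKOS factors, the virus, doxycycline and vitamin C, none of which were given to MEFs, and vitamin C is itself known to raise the activity of TET enzymes.

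Methylation of cytosine in CpG dinucleotides is laid down de novo by Dnmt3a and Dnmt3b, which the catalytically inactive Dnmt3l stimulates. After replication Uhrf1 binds hemimethylated CpGs and brings in Dnmt1, which copies the mark to the new strand. Tet1, Tet2 and Tet3 oxidize methylcytosine, and Tdg removes the further oxidized bases so that base excision repair restores an unmethylated cytosine. Only RNA levels were measured, so the values below describe neither the enzymes' activity nor the methylation of the genome.

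Libraries held 1008596 to 2296059 reads (median 1602511) after the wells of a replicate were summed. By their labels, wells of MEFs, ESCs and day 3 lay in plate rows A to C. Those of days 6 and 8 lay in rows D to F and those of day 10 in rows G and H. Between these blocks a change over days cannot be told apart from plate row, while Cont and +Sm3CA of a day shared their rows. Levels are given as normalized counts, which are reads divided by a size factor estimated over all 30 libraries. They can be compared between samples for 1 gene, but not between genes. The label check was Smad3, whose counts include the vector. It ranged from 5.2 to 25.4 normalized counts in Cont libraries and from 32.8 to 184 in +Sm3CA libraries, without overlap on any day. Of the marker lists, the sum of 7 fibroblast genes was 3856 to 5350 in MEFs and 3.7 to 12.6 in ESCs, where Col1a2 and Col3a1 were at 0. The sum of 7 pluripotency genes was 7.8 to 10.9 in MEFs and 27640 to 53294 in ESCs. MEF libraries also held 418 to 1778 normalized counts of 4 blood and macrophage genes, all detected, against 12.9 to 34.3 in ESCs, and 3 endothelial genes summed to at most 18.1 in any library. In bulk samples, fewer cells of a type and less RNA per cell cannot be told apart.

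The 9 genes had 16 promoter windows in RefSeq (GRCm38.p6), each reaching from 250 bases before to 50 bases after an annotated start. Their CpG content differed widely. The Tet2 window held 57 CpGs and those of Dnmt3a 18 to 47, while the 3 windows of Dnmt3l held 3 to 6. The windows of Dnmt1 ranged from 33 down to 2, the lowest of the set. The median over 32841 mouse promoter windows was 7. The 250 bases before a start are shown for Dnmt3b and Dnmt3l, a CpG-rich and a CpG-poor promoter of genes that were both barely detected in MEFs and highest in ESCs. Capitals mark CpGs, of which there are 21 and 3 in the stretches shown, at chr2:153649199-153649448 (plus strand) and chr10:78055085-78055334 (plus strand).
Dnmt3b: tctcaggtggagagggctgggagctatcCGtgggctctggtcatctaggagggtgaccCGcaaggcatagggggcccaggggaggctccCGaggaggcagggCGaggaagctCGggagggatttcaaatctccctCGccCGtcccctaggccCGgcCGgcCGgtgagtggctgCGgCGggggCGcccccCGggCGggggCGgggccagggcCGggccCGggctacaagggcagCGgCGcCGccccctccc
Dnmt3l: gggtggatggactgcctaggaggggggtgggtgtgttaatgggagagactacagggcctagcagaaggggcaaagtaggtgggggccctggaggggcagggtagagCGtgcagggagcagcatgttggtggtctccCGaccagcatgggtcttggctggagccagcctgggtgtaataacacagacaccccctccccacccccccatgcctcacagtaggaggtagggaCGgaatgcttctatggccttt

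Dnmt1 and Uhrf1, which act together behind the replication fork, each had a window with the E2F-type letters TTTCGCGC or TTTGGCGC on one of the strands. E2F factors are known for driving genes of DNA replication. Both strands were searched, and 0.813% of all promoter windows held either word. The other 7 genes had neither in their windows. The 30 bases around the match are shown in capitals for the match, at chr9:20952824-20952853 (minus strand), overlapping an annotated exon, and at chr17:56304117-56304146 (plus strand), outside annotated exons.
Dnmt1: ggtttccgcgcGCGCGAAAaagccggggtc
Uhrf1: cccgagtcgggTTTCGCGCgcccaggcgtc

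The match started 219 bases before the annotated start for Dnmt1 and 185 bases before it for Uhrf1, and the Dnmt1 window held a further match past its start. Of letters bound by the reprogramming factors, the E-box CACGTG was found in windows of Dnmt3a, Dnmt3l and Tdg (7.15% of all windows). The KLF words GGGCGTGG and GGGTGTGG were found in windows of Dnmt3l and Uhrf1 (8.59% of all). The octamer ATGCAAAT was in none of the 16 windows and in 1.74% of all. These are matches of letters and were not measured as binding. Which of the annotated starts was used cannot be read from counts per gene.

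The end states were compared first. Of the 8 genes that could be tested, 6 were higher and Tet3 was lower in ESCs than in MEFs at an adjusted p under 0.05 (edgeR's quasi-likelihood test, adjusted after Benjamini and Hochberg), while Dnmt3a missed the threshold and passed it without MEF replicate 3 or ESC replicate 2 (adjusted p = 0.0155 and 0.00235, edgeR). Across all genes 52.3% were called in this comparison, so a call alone was common. Dnmt3b, Dnmt3l, Tet1 and Tet2 passed the filter on low counts through the ESC libraries alone and therefore had to differ. On the log2 scale Dnmt3l was 9.51 ± 0.59 (SE), Dnmt3b 7.57 ± 0.58 and Tet1 7.37 ± 0.53 higher in ESCs, against 2.17 ± 0.34 for Dnmt1.

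**Figure D1:**
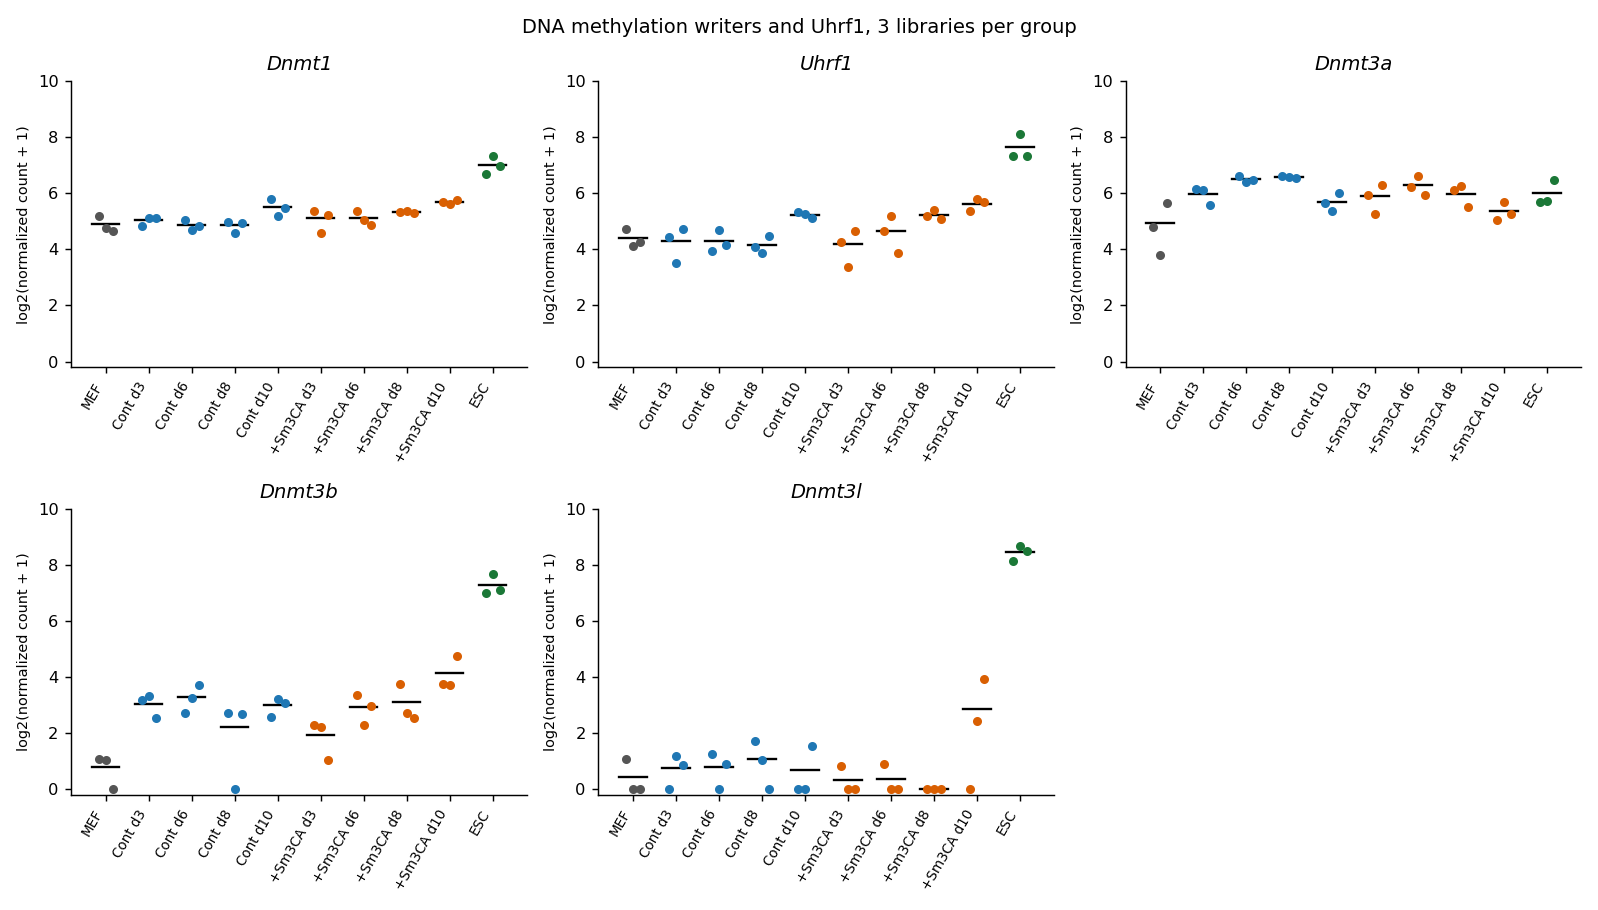
Levels of Dnmt1, Uhrf1, Dnmt3a, Dnmt3b and Dnmt3l in each library, as log2(normalized count + 1) on the vertical axis, for the 10 groups on the horizontal axis. Points are libraries (n = 3 per group) and black lines mark the group means. The ESC libraries lie above all others for every gene but Dnmt3a, whose group means are highest in Cont on days 6 and 8.

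Dnmt1 (chr9:20907209-20959888, minus strand, ENSMUSG00000004099), the maintenance methyltransferase, was detected in every library. Its levels were 35.6, 26.1 and 24.2 normalized counts in MEFs and 102, 159 and 126 in ESCs, a 4.51-fold ratio of means without overlap (adjusted p = 6.05e-05, edgeR). All 24 reprogramming libraries lay far below the ESC range, between 23.2 and 54.3. Cont gave 27.6, 33.7 and 34.1 on day 3 and 54.3, 35.8 and 43.3 on day 10. +Sm3CA gave 40.7, 23.2 and 36.5 on day 3 and 50.5, 48.1 and 53.4 on day 10. Although day 10 lay above day 3 in both series without overlap, neither difference passed the test (log2 0.47 ± 0.25, adjusted p = 0.175 in Cont, and 0.60 ± 0.25, adjusted p = 0.0617 in +Sm3CA, edgeR). Without day 3 replicate 1 the +Sm3CA difference passed (adjusted p = 0.0395). On day 10 the distance to ESCs was still a log2 fold change of 1.52 ± 0.25 from Cont and 1.3 ± 0.25 from +Sm3CA (adjusted p = 2.12e-06 and 3.3e-05, edgeR).

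Uhrf1 (chr17:56303321-56323486, plus strand, ENSMUSG00000001228), the hemimethylated CpG reader that recruits Dnmt1, differed more between the end states than its partner did. MEFs held 25.6, 16.3 and 18.1 normalized counts and ESCs 160, 275 and 158, a 9.88-fold ratio. In +Sm3CA it went from 18.4, 9.3 and 24 on day 3 through 23.9, 35.7 and 13.5 on day 6 to 35.8, 41.1 and 33.1 on day 8. The 3 libraries of day 10, at 40.7, 54.6 and 50.8, all exceeded those of day 3. The rise from day 3 to day 10 passed the test (log2 1.51 ± 0.33, adjusted p = 0.000539, edgeR). In Cont the level stayed between 10.4 and 25.2 through day 8 and was 39.5, 37.0 and 33.9 on day 10. The rise of Cont from day 3 to day 10 was borderline (log2 0.91 ± 0.34, adjusted p = 0.043, edgeR). It missed the threshold under 8 of 12 other settings, among them DESeq2's Wald test (adjusted p = 0.0788) and leaving out each of 5 libraries in turn (up to 0.199).

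Dnmt3a (chr12:3806007-3914443, plus strand, ENSMUSG00000020661), a de novo methyltransferase, was the only writer with its highest levels midway through reprogramming. MEFs held 26.7, 13 and 49.3 normalized counts and day 3 of Cont 70.4, 68.7 and 47.1. Cont then gave 96.2, 84.3 and 87.8 on day 6 and 97.4, 95 and 92.5 on day 8, then 49.4, 40.6 and 63.1 on day 10. In +Sm3CA the values were 60.6, 37.1 and 78.2 on day 3 and 73.5, 97.8 and 60.7 on day 6, followed by 68.0, 74.7 and 44.4 on day 8 and by 32.2, 50.2 and 37.8 on day 10. ESCs, at 50.2, 52.4 and 88.7, overlapped most reprogramming groups. Dnmt3a rose from MEFs to day 3 in Cont (log2 1.14 ± 0.32, adjusted p = 0.00403, edgeR) and in +Sm3CA (1.06 ± 0.32, adjusted p = 0.00711), comparisons that share the MEF libraries. Both calls rested on MEF replicate 2, the lowest, without which adjusted p was 0.0705 in Cont and 0.112 in +Sm3CA (edgeR), and the second was also lost without +Sm3CA day 3 replicate 3 (0.0785). The fall of Cont from day 8 to day 10 had no overlap between libraries (log2 −0.88 ± 0.25, adjusted p = 0.0457, edgeR). It was lost under 9 of 12 other settings, including the replicate block that pairs days within a series (adjusted p = 0.0538) and leaving out any 1 of the 6 libraries (up to 0.214).

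Dnmt3b (chr2:153649450-153687730, plus strand, ENSMUSG00000027478), the other de novo enzyme, was nearly absent from MEFs, with 2 reads over 3 libraries. ESCs held 126, 204 and 138 normalized counts. The ratio of summed reads, 220, has a 95% counting interval of 60.4 to 1822. The reprogramming cells held few reads on every day. Cont libraries ranged from 0 to 12.3 normalized counts with no called change over days (log2 −0.05 ± 0.64 from day 3 to day 10, adjusted p = 0.963, edgeR). +Sm3CA went from 3.8, 3.7 and 1.0 on day 3 to 9.4, 3.9 and 6.7 on day 6 and 12.4, 5.5 and 4.8 on day 8, and reached 12.6, 12 and 26.0 on day 10. Its rise passed the test (log2 2.47 ± 0.65, adjusted p = 0.00302, edgeR) and was called without replicate 3 of day 10, the highest library, too (2.02, adjusted p = 0.0382). Day 10 of +Sm3CA was the only group whose 3 libraries all reached the minimum of the filter on low counts, so the gene was tested largely because that group was high. From MEFs to day 3 Dnmt3b rose in Cont (log2 3.30 ± 0.85, adjusted p = 0.00161, edgeR), on 22 reads against 2. The same step in +Sm3CA gave 2.06 ± 0.98 (adjusted p = 0.0862) on 10 reads against 2. On day 10 ESCs were still higher by a log2 of 4.44 ± 0.46 than Cont and 3.16 ± 0.42 than +Sm3CA (adjusted p = 7.39e-11 and 3.73e-08, edgeR).

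Dnmt3l (chr10:78041947-78063622, plus strand, ENSMUSG00000000730), the catalytically inactive partner of the de novo enzymes, had the widest contrast. ESCs held 279, 406 and 356 normalized counts and MEFs 1 read in all. That made a ratio of 991 with a 95% counting interval of 177 to 39182. Every Cont library had at most 2.3 normalized counts, and day 8 of +Sm3CA had no read, at least 170-fold below ESCs. On day 10 of +Sm3CA 2 of 3 libraries (replicates 2 and 3) held 4 and 11 reads and replicate 1 held none, against 2 reads over the 3 Cont libraries of that day. The ratio of these sums was 8.47 (95% counting interval 1.97 to 76.4), which covers counting error only, and the gene was too low to be tested among the reprogramming libraries. ESCs exceeded this day 10 level 53.2-fold (32 to 95.4).

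**Figure D2:**
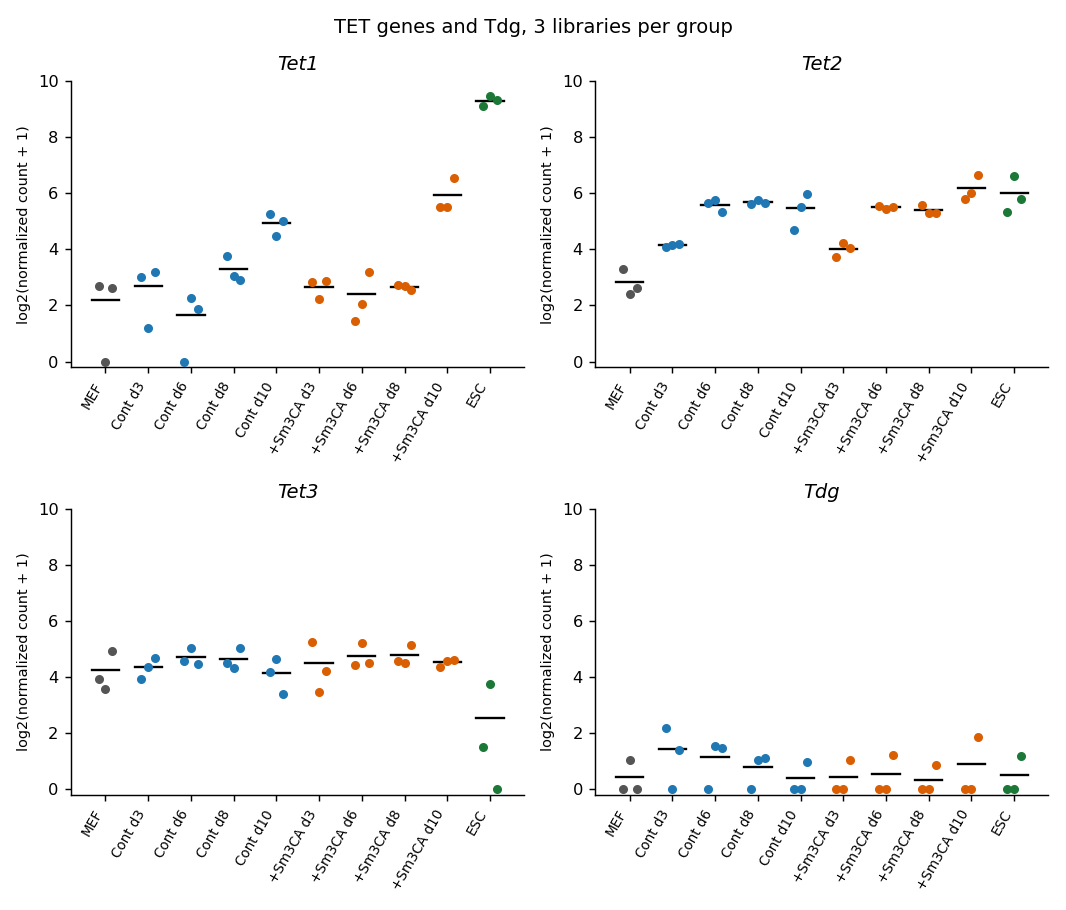
Levels of Tet1, Tet2, Tet3 and Tdg in each library, as log2(normalized count + 1) on the vertical axis, for the 10 groups on the horizontal axis. Points are libraries (n = 3 per group) and black lines mark the group means. Tet1 rises between days 8 and 10 in both series, Tet2 is raised from day 6 on, Tet3 is lowest in ESCs and Tdg stays near 0 everywhere.

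Tet1 (chr10:62804570-62908996, minus strand, ENSMUSG00000047146), the main TET gene of ESCs, came late. MEFs held 5.6, 0 and 5.2 normalized counts and ESCs 549, 708 and 633. From day 3 to day 8 all 18 reprogramming libraries lay between 0 and 12.5. On day 10 Cont gave 37.0, 21.5 and 31.1, and +Sm3CA gave 44.9, 44.8 and 92.5. All 6 libraries of day 10 thus exceeded every earlier one. Among the reprogramming libraries Tet1 passed the filter on low counts through these 6 and 1 library of day 8 of Cont, so it could be tested only because day 10 was high, and the tests below describe its size and are no independent support. The rise from day 8 to day 10 was a log2 fold change of 3.48 ± 0.47 in +Sm3CA (adjusted p = 6.39e-06, edgeR) and 3.05 (0.000574) without replicate 3, the high one. In Cont it was 1.80 ± 0.47 (adjusted p = 0.0287, edgeR), and the call was lost without day 8 replicate 2 or 3 or day 10 replicate 1 or 3 (up to 0.116). From day 3 to day 10 Tet1 rose by 2.30 ± 0.50 in Cont and by 3.47 ± 0.49 in +Sm3CA on the log2 scale (adjusted p = 0.000648 and 7.51e-07, edgeR). ESCs lay 21.1-fold above Cont and 10.4-fold above +Sm3CA on day 10, as ratios of means.

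Tet2 (chr3:133463679-133545139, minus strand, ENSMUSG00000040943) moved early and reached the ESC range by day 6. MEFs held 8.9, 4.3 and 5.2 normalized counts, below all reprogramming libraries. Cont gave 16, 16.9 and 17.1 on day 3 and 49.1, 52.7 and 39.5 on day 6, and +Sm3CA gave 12.3, 17.6 and 15.6 on day 3 and 46.2, 42.7 and 44.5 on day 6. ESCs, at 39.3, 97.5 and 54.0, overlapped the libraries of day 6. Tet2 rose from MEFs to day 3 (log2 1.56 ± 0.42, adjusted p = 0.00273 in Cont, and 1.41 ± 0.43, adjusted p = 0.00678 in +Sm3CA, edgeR) and again from day 3 to day 6 (1.49 ± 0.29, adjusted p = 0.000604, and 1.57 ± 0.29, adjusted p = 0.000187). Markers of other cell types moved over the first step. The sum of 3 keratinocyte genes was higher on day 3, with 0 to 0.86 normalized counts in MEFs, 415 to 699 in Cont and 462 to 1029 in +Sm3CA, and the mean of the fibroblast sum went from 4497 to 1004 and 1183. The sum of 3 neural genes was 38.0 to 56.4 in MEFs, 321 to 506 in Cont and 452 to 612 in +Sm3CA. Not every gene of these sums was detected, with Krt5 at 0 reads in MEFs and in Cont on days 3 and 6. Krt6a was at 0 in MEFs, and Sox10 was at 0 in +Sm3CA on days 3 and 6 and in Cont on day 6. From day 3 to day 6 the keratinocyte means were lower, not higher, going from 542 to 447 in Cont and from 799 to 303 in +Sm3CA, and so were the neural means, from 399.9 to 300.5 and from 506 to 274. Means of 4 blood and macrophage genes were higher on day 6, at 1572 against 777 in Cont and 774 against 412 in +Sm3CA. Their part in the Tet2 values was not tested. Tet2 was the only gene of the 9 called in the step from day 3 to day 6, in both series. On day 8 Cont held 47.5, 53.8 and 49.5 and +Sm3CA 47.0, 38.0 and 37.9. On day 10 they held 24.7, 44.2 and 61.2, and 54.7, 63.4 and 99.0. The last rise of +Sm3CA was called (log2 0.82 ± 0.25, adjusted p = 0.0459, edgeR). It did not pass under 10 of 12 other settings, among them the replicate block (adjusted p = 0.0575) and the fit without day 10 replicate 3 (0.534, adjusted p = 0.322).

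Tet3 (chr6:83362373-83459084, minus strand, ENSMUSG00000034832) was alone in being lower in ESCs. The 3 ESC libraries held 1.8, 12.6 and 0 normalized counts (2, 7 and 0 reads), MEFs 14.4, 10.9 and 29.4, and the 24 reprogramming libraries 9.4 to 36.8. ESC replicate 2 overlapped the MEF range. The log2 difference from MEFs was −2.17 ± 0.83 (adjusted p = 0.0366, edgeR). It was lost under DESeq2 (adjusted p = 0.0821), with the replicate block (0.0787), and without MEF replicate 1 (0.0568) or 3 (0.206) or ESC replicate 1 (0.145) or 3 (0.12). Against day 10 the fall was −2.05 ± 0.65 from Cont, lost without ESC replicate 1 (adjusted p = 0.0685) or 3 (0.0651), and −2.50 ± 0.63 from +Sm3CA (adjusted p = 0.00744 and 0.00122 with all libraries, edgeR). Between days no step of Tet3 was called in either series.

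Tdg (chr10:82629828-82650799, plus strand, ENSMUSG00000034674), the glycosylase that excises oxidized methylcytosine, had 0 to 4 reads in every library and could not be tested. No difference in Tdg was detectable at this depth. Genes annotated on the opposite strand overlap Dnmt3a, Dnmt3b, Dnmt3l, Tet2, Tet3 and Tdg, among them Aire over Dnmt3l and Glt8d2 over Tdg. The sources used here do not say whether counting used the strand, so reads of such pairs may not be separated.

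**Figure D3:**
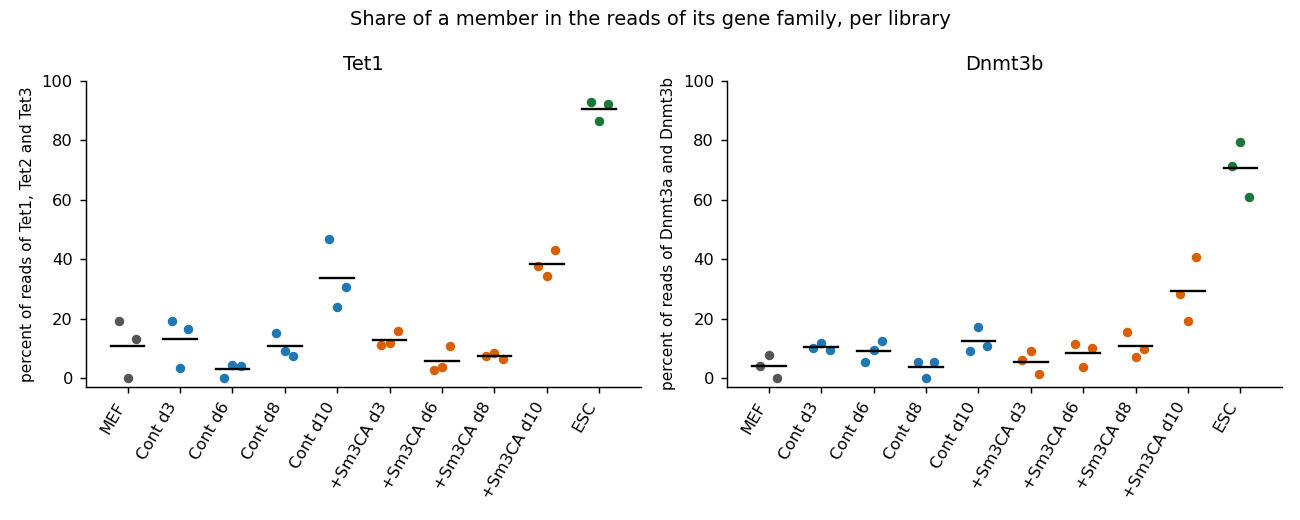
Percent of the reads of Tet1, Tet2 and Tet3 that belong to Tet1 (left) and of Dnmt3a and Dnmt3b that belong to Dnmt3b (right), per library (points, n = 3 per group) with group means (black lines), for the 10 groups on the horizontal axis. Both shares are highest in ESCs, with the libraries of day 10 next for Tet1.

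The composition of the gene families also differed between groups. Tet1 held 86.5% to 93.0% of the reads of the 3 TET genes in ESCs and 0 to 19.2% in MEFs, where Tet3 held 50% to 73.9%. Dnmt3b held 60.8% to 79.6% of the reads of Dnmt3a and Dnmt3b in ESCs, 19.3% to 40.8% on day 10 of +Sm3CA, 9.1% to 17.1% on day 10 of Cont and 0 to 7.7% in MEFs. Shares of 1 gene are compared between groups here, and the share of reads need not equal the share of transcripts. The TET shares rest on 86 reads over the MEF libraries and 1633 over those of ESCs. Reads of Dnmt3a and Dnmt3b were 95 in MEFs, 160 on day 10 of Cont, 138 on day 10 of +Sm3CA and 511 in ESCs. Shares in groups with few reads are coarse.

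Counts of calls along the course can be set against all genes. From MEFs to day 3, 3 of the 8 genes tested rose in Cont (Dnmt3a, Dnmt3b and Tet2), where 43.4% of all genes were called. In +Sm3CA 2 rose (Dnmt3a and Tet2), with 43.1% called. From day 3 to day 10, 3 of 7 rose in Cont (Uhrf1, Tet1 and Tet2; 25.3% of all genes called) and 4 of 7 in +Sm3CA (those and Dnmt3b; 33.7% called). None fell, although Dnmt3a passed as a fall in +Sm3CA without day 3 replicate 2 (adjusted p = 0.032, edgeR). Tet1 and, in +Sm3CA, Dnmt3b count here with the limit of the filter given above. From day 10 to ESCs, Dnmt1, Dnmt3b, Dnmt3l, Uhrf1 and Tet1 were higher and Tet3 lower from either series, with 51.8% of all genes called from Cont and 45.8% from +Sm3CA. Dnmt3l was tested there through the 3 ESC libraries and 1 of day 10 of +Sm3CA and so had to differ. Tet2 also passed from Cont without its replicate 3 or ESC replicate 1 (adjusted p = 0.0351 and 0.0426, edgeR). The 2 comparisons share the ESC libraries. By steps, 1 of 7 was called from day 3 to day 6 in Cont (9.12% of all genes) and in +Sm3CA (18.6%). From day 8 to day 10, 2 of 7 were called in Cont (2.4%) and 2 in +Sm3CA (4.85%). The steps from day 3 to day 6 and from day 8 to day 10 also change plate rows, which days 6 and 8 share. From day 6 to day 8 edgeR called none, against 1.69% of all genes in Cont and 6.68% in +Sm3CA, and 1 gene in Cont (Tet1) and 0 in +Sm3CA had an unadjusted p under 0.05, as had 13% and 21.5% of all genes. DESeq2 gave 0 calls in both of these steps as well.

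**Figure D4:**
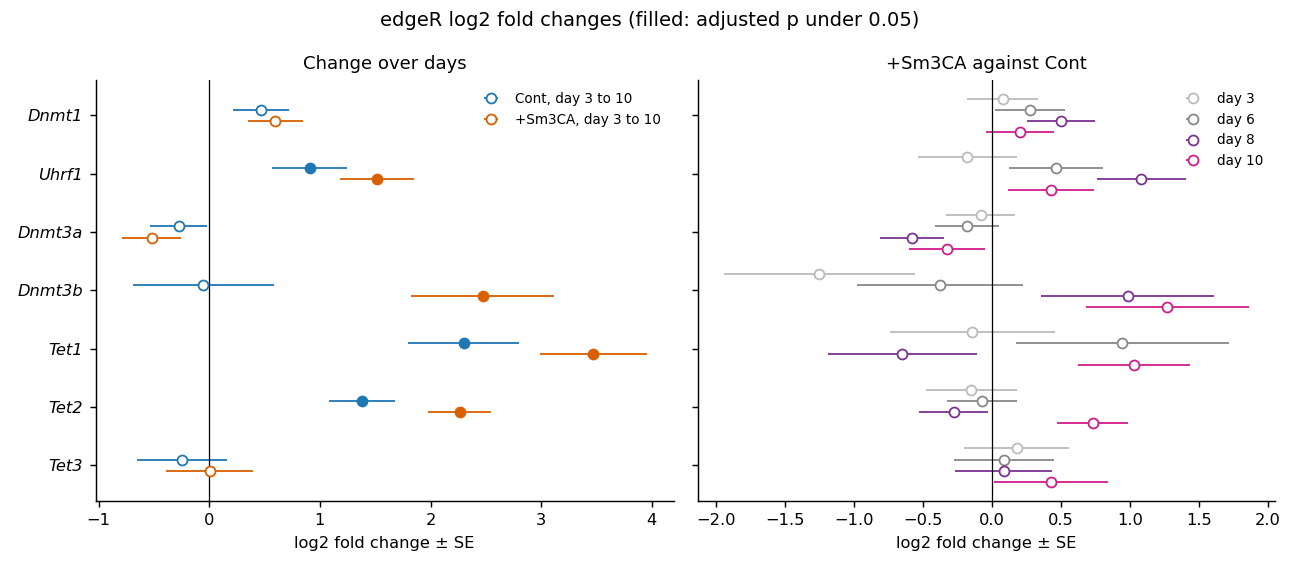
Log2 fold changes with standard errors (horizontal axis) for the 7 genes tested among the 24 reprogramming libraries. The left panel shows day 3 to day 10 in Cont and +Sm3CA, and the right panel shows +Sm3CA against Cont on each day. Filled points have an adjusted p under 0.05 (edgeR). Points are filled for Uhrf1, Tet1 and Tet2 in both series and for Dnmt3b in +Sm3CA, and none is filled in the right panel.

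Smad3CA was compared with the control on each day, which asks whether it shifts these genes at a given time. By edgeR 0 of the 7 genes tested were called on any day, while the share of all genes called was 0.0195% on day 3 and 0.00977% on day 6, and reached 1.04% by day 8 and 3.58% by day 10. DESeq2 also called 0, though on day 8 it gave an adjusted p for only 2 of the genes and left the others out as too low. At an unadjusted p under 0.05 there were 0, 0, 3 and 3 of the 7 on days 3, 6, 8 and 10, against 5.11%, 4.16%, 15.2% and 15.9% of all genes. On day 8 these were Uhrf1 (log2 1.08 ± 0.32, adjusted p = 0.084), Dnmt1 (0.50 ± 0.25, adjusted p = 0.323) and Dnmt3a (−0.58 ± 0.23, adjusted p = 0.202, edgeR). None of the 3 had overlapping libraries, nor had Tet1 (log2 −0.65) and Tet2 (−0.28), both lower in +Sm3CA with an unadjusted p above 0.05. For each of these 5 the exact permutation test gives 0.1, the smallest p that 3 against 3 allows, and 15.9% of all genes tested did not overlap on that day. Uhrf1 on day 8 was thus 2.15-fold higher as a ratio of means and was called only without +Sm3CA replicate 3 (adjusted p = 0.0486, edgeR).

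The Uhrf1 difference on day 8 stood beside one in genes of DNA synthesis. The summed level of 13 S phase genes was 1059 to 1185 normalized counts in Cont and 1516 to 1667 in +Sm3CA on that day. Of the 13, Pcna, the sliding clamp that also binds Dnmt1, and Rrm2, a subunit of ribonucleotide reductase, were called (log2 0.83 ± 0.17, adjusted p = 0.00958, and 0.78 ± 0.17, adjusted p = 0.0131, edgeR), and on the other days none was. Over all genes 1.04% were called on day 8. Sums of keratinocyte genes were 513 to 696 in Cont and 231 to 386 in +Sm3CA on day 8, and those of neural genes 524 to 1523 and 136 to 285, both without overlap, while the fibroblast, pluripotency, blood and endothelial sums overlapped. Krt5 had 0 reads in +Sm3CA and Sox10 had 0 reads in both series on that day. The part of S phase or of these markers in the day 8 values was not tested.

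On day 10 the 3 were Tet2 (log2 0.73 ± 0.26, adjusted p = 0.111), Tet1 (1.03 ± 0.41, adjusted p = 0.172) and Dnmt3b (1.27 ± 0.59, adjusted p = 0.273, edgeR). Tet1 and Dnmt3b did not overlap between the groups, nor did Uhrf1 (log2 0.43 ± 0.31, adjusted p = 0.548, edgeR), on a day when 20.7% of all genes tested did not overlap. Dnmt3b was tested largely because day 10 of +Sm3CA was high, so its place among the 3 is no independent support. The differences leaned on single libraries. Without +Sm3CA replicate 3 they were 0.46 for Tet2, 0.61 for Tet1 and 0.84 for Dnmt3b on the log2 scale, while without Cont replicate 3 Tet2 was called at 1.10 (adjusted p = 0.0366, edgeR). The sum of pluripotency markers moved alongside, at 698, 448 and 1008 in Cont and 1126, 1266 and 2234 in +Sm3CA, a 2.15-fold ratio of means against 2.03-fold for Tet1. Its part in the result was not tested. Fibroblast markers summed to 1174, 2332 and 2380 in Cont and 1483, 1389 and 1150 in +Sm3CA. Sums of 4 blood and macrophage genes were 583, 2509 and 2346 against 903, 822 and 1514, and those of 3 keratinocyte genes 699, 945 and 812 against 419, 311 and 159. Krt5 had 0 reads in Cont on that day. Of these lists only the pluripotency and keratinocyte sums did not overlap between the groups.

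The change of the Smad3CA effect from day 3 to day 10 was tested as an interaction. Again 0 of 7 were called by edgeR or DESeq2, with 1.01% of all genes called, and 2 of the 7 had an unadjusted p under 0.05, against 12.1% of all genes. These were Dnmt3b, at a log2 of 2.52 ± 0.91 (adjusted p = 0.208), and Tet2, at 0.88 ± 0.42 (adjusted p = 0.393, edgeR). Dnmt3b was tested largely because day 10 of +Sm3CA, a part of this interaction, was high, so its place here is no independent support. That Dnmt3b passed the test over days in +Sm3CA and not in Cont is therefore not shown to be a difference between the series.

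Partners of the writers were mostly higher in ESCs. Of 16 partner and recruiter genes, 13 could be tested between ESCs and MEFs. Of these 9 were higher and none lower, with 52.3% of all genes called. The largest were Dppa3, known to protect the maternal genome from demethylation and to counter Uhrf1 (log2 9.18 ± 0.69), the chromatin remodeller Hells (4.26 ± 0.40) and its partner Cdca7 (3.57 ± 0.35). From day 3 to day 10, 3 of 16 rose in Cont (Nsd1, Cdca7 and Dppa3) and 7 of 16 in +Sm3CA (Cdca7, Dppa3, Hells, Zfp57, Kdm1a, Kdm1b and Ehmt2), with none lower. Of all genes 25.3% were called in Cont and 33.7% in +Sm3CA. Cdca7, which recruits Hells to chromatin, rose by 0.85 in Cont and 1.48 in +Sm3CA on the log2 scale (adjusted p = 0.0268 and 8.94e-05, edgeR). Zfp57, which guards methylation at imprinted loci, rose by 1.38 in +Sm3CA (adjusted p = 0.000369). These genes were named after their values had been seen, as were those of the lists below whose calls lay between days. On day 10 Dppa3 and Hells were the 2 of 16 that were higher in +Sm3CA than in Cont, with 3.58% of all genes called. Dppa3 was at 30.9, 7.2 and 12.2 normalized counts in Cont and 36.4, 76.5 and 105 in +Sm3CA (log2 2.14 ± 0.51, adjusted p = 0.0122, edgeR), and no library of days 3 to 8 exceeded 0.88. Among the reprogramming libraries Dppa3 thus passed the filter on low counts only because day 10 was high. Against MEFs, which held at most 1.09, it passed through ESCs alone. Its rises over days and its difference between ESCs and MEFs therefore had to appear and are no independent support. The day 10 call rests on the same libraries that passed the filter. Hells was at 45.7, 43.0 and 64.1 in Cont and 89.7, 80.8 and 113 in +Sm3CA (log2 0.89 ± 0.24, adjusted p = 0.0219). The median log2 difference over the 16 genes on day 10 was 0.37, against −0.01 over all genes tested.

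The enzymes of the methyl donor cycle, the readers of methylated CpGs and the repair genes moved less uniformly. Of 3 methyl donor genes, Ahcy, which clears S-adenosylhomocysteine, and Mat2b, a regulatory subunit of methionine adenosyltransferase, were higher in ESCs than in MEFs (log2 1.62 ± 0.31 and 0.88 ± 0.28, adjusted p = 0.000367 and 0.0166, edgeR). Of 7 methyl-CpG readers, 5 were tested and Zbtb4 and Mbd2 were lower in ESCs (log2 −7.81 ± 1.03 and −3.33 ± 0.51), with Zbtb4 at 0 reads in all ESC libraries, and none was higher. Zbtb4 thus passed the filter on low counts through the MEF libraries alone and had to differ. Of all genes 52.3% were called between ESCs and MEFs. Between +Sm3CA and Cont edgeR and DESeq2 gave 0 calls in either list on every day, with an unadjusted p under 0.05 in edgeR for 1 methyl donor gene on day 8 and 0 readers.

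Of 13 base excision repair genes, 9 were tested between ESCs and MEFs, with 6 higher and 2 lower. The share called over all genes was 52.3%. The uracil glycosylase gene Ung (log2 5.64 ± 0.71) and Parp1, the strand break sensor (3.87 ± 0.37), were higher, and Gadd45b, linked to active demethylation, was lower (−3.0 ± 0.59). Parp1 was the only repair gene called between the series, on day 10, at 53.1, 68.1 and 67.8 normalized counts in Cont and 93.9, 115 and 124 in +Sm3CA (log2 0.83 ± 0.21, adjusted p = 0.0155, edgeR).

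Among 5 TET partners and cofactor enzymes, 4 were tested between ESCs and MEFs and 0 were called by edgeR, 0 by DESeq2 and 0 at an unadjusted p under 0.05, which 57.6% of all genes reached. From MEFs to day 3, 3 of 4 fell in both series, namely Cxxc5, Ogt and Idh2, of which Cxxc5 fell by 2.78 in Cont and fell by 3.04 in +Sm3CA on the log2 scale (adjusted p = 0.00167 and 0.00083, edgeR). Over all genes 43.4% were called in Cont and 43.1% in +Sm3CA in this step. On day 10 Idh2, the mitochondrial enzyme that makes the TET cosubstrate 2-oxoglutarate, was higher in +Sm3CA, at 58.9, 51.3 and 49.5 normalized counts against 33.3, 22.7 and 21.7 in Cont (log2 1.06 ± 0.28, adjusted p = 0.0245, edgeR). On day 8 the order was the other way around, with 17.9, 38.0 and 38.7 against 49.8, 46.4 and 34.0, which overlapped.

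S phase genes, which rise and fall with the share of dividing cells, accompanied Dnmt1 and Uhrf1 at the end states. Between ESCs and MEFs 10 of 13 were higher and none lower, where 52.3% of all genes were called. The summed level was 1079 to 1383 normalized counts in MEFs and 3199 to 4472 in ESCs. From day 3 to day 10 of +Sm3CA, where Uhrf1 rose, 2 of the 13 rose (Cdc6 and Slbp) and 3 fell (Tyms, Rrm1 and Gins2), and in Cont 1 rose (Mcm2) and 2 fell (Tyms and Gins2). The shares called over all genes were 33.7% in +Sm3CA and 25.3% in Cont. The sums on day 10, 1351 to 1697 in Cont and 1542 to 1881 in +Sm3CA, overlapped.

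Ranking the 10 groups by mean level gave ESCs first, apart from the next group, for Dnmt1, Dnmt3b, Dnmt3l, Uhrf1 and Tet1. Day 10 of +Sm3CA came second for each of the 5. For Uhrf1 and Tet1 it was also apart from day 10 of Cont, which came next, on a day when 20.7% of all genes tested did not overlap. For Dnmt1, Dnmt3b and Dnmt3l it overlapped the next group. Tet2 had 2 gaps in its order, between the libraries of day 6 or later and those of day 3, and between day 3 and MEFs. No neighbouring groups of Dnmt3a, Tet3 or Tdg were apart. The share of all genes with such gaps was not computed for ESCs or for the groups around the Tet2 gaps, so these gaps are descriptions. Between day 10 of +Sm3CA and ESCs 45.8% of all genes were called.

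The genes with the most similar profiles were found by the Pearson correlation of log2(normalized count + 1) over the 30 libraries, among 10940 genes. The libraries share groups and days and differ in depth, so the values are descriptions. Dnmt1 and Uhrf1 were each other's closest gene (r = 0.928). Next came Triml2 and Mycn for Dnmt1 and Tle4 and Dut for Uhrf1. Tet1 was closest to the pluripotency-associated genes Dppa2 (0.939), Dppa5a and Fbxo15, and Dnmt3l to Hormad1 (0.968), Gm6083 and C330021F23Rik. Tet2 was closest to the epithelial adhesion gene Epcam (0.936), Map7 and Gtsf1l. Dnmt3b was closest to Tardbp (0.895), Snhg3 and Mkrn1, Dnmt3a to Rae1 (0.827), Prpsap1 and Aggf1, and Tet3 to Scap (0.913), Zadh2 and Kif1b. Of the 8 genes, none kept all of its closest genes when ranks were correlated instead.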

How the data were processed

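STRT RNA-seq libraries of MEFs, ESCs, Cont (labelled BFP) and +Sm3CA cells were analysed. The authors deposited unnormalized read counts of every gene in 84 wells, and these are counts of reads rather than of molecules, so amplification copies are included. The submitters' processing notes name Bowtie 0.12.9, mm10 and DESeq2 1.6.3. The annotation version is not given in the sources used here. All wells were mapped to a group from their labels. Wells of a replicate (3, or 2 on day 10) were summed to 30 libraries. The growth descriptions differ on vitamin C and cell number, which are not printed. Counting intervals are exact 95% intervals and cover counting error only.

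Counts were tested with edgeR 4.0.16 in R 4.3.3 (TMM, filterByExpr, quasi-likelihood test), adjusted by Benjamini-Hochberg over all genes tested and a threshold of 0.05. Of the genes tested, 8798 entered the fit of MEFs and ESCs, 10237 the fit of the 24 reprogramming libraries, and 10979 the fit of all 30 libraries, which served the comparisons from MEFs to day 3 and from day 10 to ESCs. Normalized counts used size factors of DESeq2 1.42.0 over all 30 libraries. Groups with at most 3 reads in each library were taken as undetected. Exact permutation tests were two-sided. The steps were tested on simulated data. Promoter sequences are from RefSeq (GRCm38.p6), all 9 genes matched, and positions are from GENCODE M21 (GRCm38), which held 17467 of the 18909 symbols. Tables were made with Python 3.11.15, pandas 2.3.3 and matplotlib 3.10.9.

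The 9 genes, the gene and marker lists and the tests were chosen with earlier results of these data known. All 9 genes are named, pathway genes only where called between +Sm3CA and Cont or among the 3 largest called changes of a list between ESCs and MEFs, apart from pathway and S phase genes called between days or from MEFs to day 3, which were named after their values had been seen, and the 3 most similar genes of each member that reached a mean of 10 normalized counts in a group. The design text pairs replicates over days within a series, while no pairing between Cont and +Sm3CA is stated. As a check, deviations from group means of same-numbered libraries correlated with a mean r of 0.00275 over days in Cont (−0.121 to 0.0884) and 0.0216 in +Sm3CA (−0.0882 to 0.185), over 8628 genes. Alternatives were the Wald test and the size factors of DESeq2, no filter, other sets of libraries, the replicate block, CPM, 1 well per replicate, Spearman correlation, and leaving out each library in turn. Other assays of the study were not analysed here.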

Additional observations from a re-analysis of the deposited data

How the results depend on the processing

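The number of the 9 genes called stayed within 1.5 times its value in all 12 comparisons under DESeq2 size factors, the DESeq2 Wald test, no filter, other sets of libraries and the replicate block. With the replicate block the count was 7 for ESCs against MEFs, 3 and 2 from MEFs to day 3 in Cont and +Sm3CA, 3 and 4 from day 3 to day 10, 6 and 6 from day 10 to ESCs, and 0 for +Sm3CA against Cont on every day and for the interaction. For ESCs against MEFs the block called Dnmt3a (adjusted p = 0.0342, edgeR) and lost Tet3. Same-numbered libraries of Cont and +Sm3CA correlated with a mean r of −0.0171 and those of MEFs and ESCs of −0.0671. The mean was also small over days, where the design text pairs replicates (0.00275 in Cont and 0.0216 in +Sm3CA). The check therefore cannot decide whether the numbers pair libraries. Leaving out 1 library in turn gave 6 to 8 calls for ESCs against MEFs, 2 to 3 and 1 to 2 from MEFs to day 3 in Cont and +Sm3CA, 2 to 3 and 4 to 5 from day 3 to day 10, 5 to 7 and 6 to 6 from day 10 to ESCs, 0 to 1 for +Sm3CA against Cont on days 8 and 10, and 0 to 0 on days 3 and 6 and for the interaction. Fold changes were checked for direction where they were called, or had an unadjusted p under 0.05 between +Sm3CA and Cont, and none reversed. Over the 12 comparisons and the steps between days, leaving out 1 library lost a call of a member 29 times and gained one 8 times. Under other settings, 13 of 229 fits of the results checked for direction lost a call. The 13 fits were of Dnmt3a, Uhrf1, Tet2 and Tet3. The calls changed by leaving out 1 library were of these genes, of Tet1 and, as a gain only, of Dnmt1. The results are given above with their values, and the cause was not tested. Of 180 levels, 24 moved by more than the SD between replicates under CPM or with 1 well per replicate, and the most similar genes changed for all 8 members with Spearman correlation. The median of all genes was −0.15 on the log2 scale from day 10 of Cont to ESCs. Depth limits Dnmt3b and Dnmt3l outside ESCs, Tet3 in ESCs and Tdg everywhere.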
